A study of Mus musculus with 6 samples.

Results

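Early lymphoid priming genes are genes of the lymphoid programme that multipotent cells of the bone marrow (BM) already transcribe at a low level before they commit to a lineage. The 7 genes described here are *Flt3*, *Dntt*, *Ikzf1*, *Satb1*, *Tcf3*, *Ets1* and *Bcl11a*. They are members by name, for this known role, and no value enters the rule, although earlier results of these data were known when they were chosen. All 7 of 7 were found among the 26216 gene symbols of the data set, with 1 row each. RNA had been sequenced from LT/ST-HSCs, the long-term and short-term hematopoietic stem cells (HSCs), which were sorted by FACS as CD150+CD48- cells among the living (Annexin-V-) Lin- cells positive for sca1 and c-kit. The donor cells were BM LSKs (Lin-sca1+c-kit+ cells) of 2 genotypes. Ltbr-/- (CD45.2) donors, aged 10 to 13 weeks, lack the lymphotoxin β receptor (LTβR) in every cell through a homozygous deletion within the gene, and Ly5.1 (CD45.1) donors, aged 7 to 13 weeks, are wild type at *Ltbr* and carry the other form of CD45. Both were injected together at equal numbers into irradiated Ly5.1/Ly5.2 recipients, whose own tissues have an intact *Ltbr*. The HSCs were collected at week 6 in 3 Ltbr-/- and 3 Ly5.1 samples, each pooled from chimeras. Genotype, CD45 form and donor strain differ together between the groups and cannot be told apart.

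Lymphoid priming starts when multipotent progenitors raise the cytokine receptor Flt3 and, in some cells, the DNA polymerase Dntt, while the zinc finger protein Ikaros (*Ikzf1*), the E protein E2A (*Tcf3*), the ETS factor *Ets1*, the chromatin organizer *Satb1* and the repressor *Bcl11a* act on the enhancers of lymphoid genes. The most primitive HSCs carry little Flt3 on their surface, where it is called CD135, and gain it as they become multipotent progenitors. The gate given for the RNA samples does not name CD135. In bulk RNA, fewer cells that express a gene and less RNA per cell cannot be told apart.

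Among the 7 genes, *Bcl11a* and *Flt3* fell in Ltbr-/- LT/ST-HSCs, and the other 5 did not pass the test. *Bcl11a* had 80.6% and *Flt3* 82.3% of the Ly5.1 level. With an adjusted p under 0.05 from limma over 13108 tested genes, 2 of the 7 were lower and 0 higher, a share of 28.6% lower against 4.18% of all tested genes, and 0% higher against 10.6%. At an unadjusted p under 0.05, 2 were lower and 0 higher, against 11.4% and 15.7% of all tested genes. With the additional fold threshold of 1.5 that the study's methods name, 0 of the 7 were called, against 2.78% of all tested genes. The median log2 fold change of the 7 genes was -0.041, against -0.011 for all tested genes. For each of the 7 genes the 95% confidence interval of the log2 fold change lay within ±0.585, the log2 of 1.5. The values were read as regularized logs, which draw weakly expressed genes towards their mean. On that reading these intervals describe the shrunken scale. All directions are relative to the bulk of the tested genes: scaling on ribosomal protein genes in place of the deposited scale moves the median of all tested genes from -0.011 to -0.89, and every member then lies below 0.

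**Figure D1:**
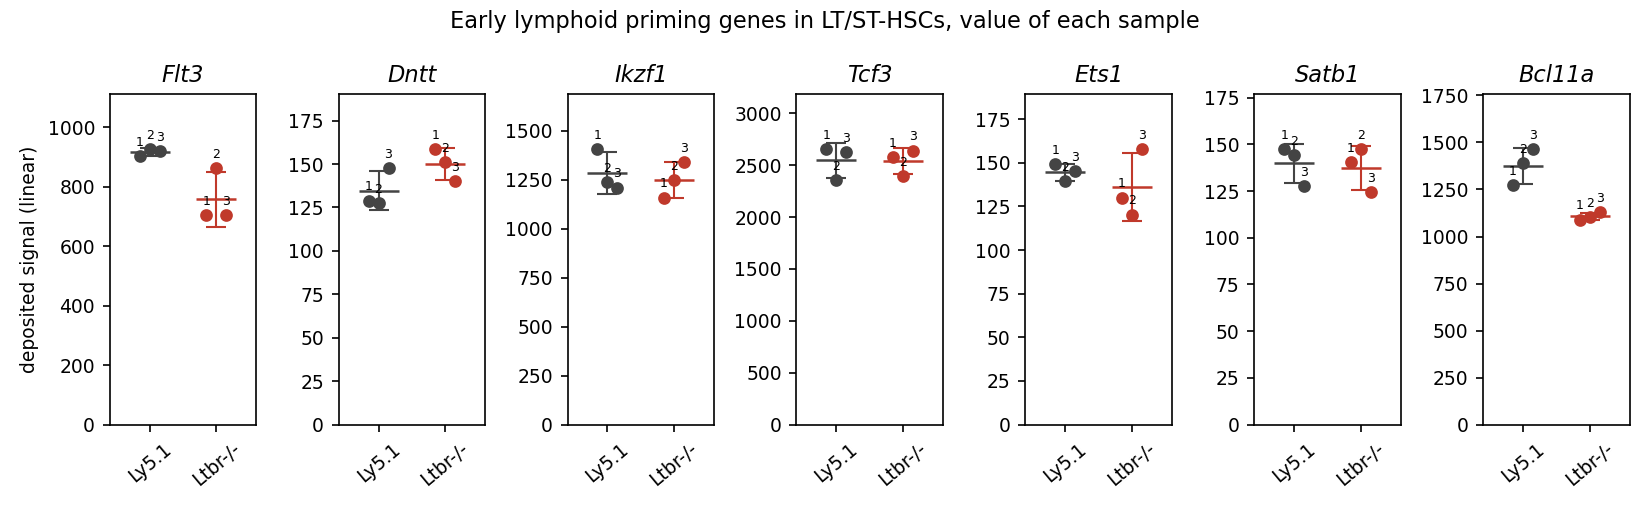
Deposited signal (linear scale from 0) of the 7 early lymphoid priming genes in each of the 3 Ly5.1 (black) and 3 Ltbr-/- (red) samples, with replicate numbers beside the points and the mean ± SD as bars. The groups are apart for *Flt3* and *Bcl11a*, and they overlap for the other 5 genes.

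The label of each sample was checked by *Ltbr* itself. Its signal was 24.2, 26.4 and 23.1 in the Ltbr-/- samples and 564, 549 and 522 in the Ly5.1 samples. The sorted cells carried the HSC markers *Kit* (5179 to 6103 over the 6 samples), *Slamf1* (260 to 329) and *Procr* (549 to 630), with *Cd48*, which the gate leaves out, at 20.1 to 28.9. Of 11 B cell markers, 6 stayed under a signal of 10 in every sample, *Ms4a1* and *Pax5* among them, while *Cd79a* (168 to 304) and *Cd79b* (268 to 357), the chains of the B cell receptor signalling unit, were well above it. The lineage genes that follow the priming stage were at the bottom of the scale, with *Rag1* between 3.19 and 3.27, *Rag2* between 1.58 and 1.62, *Il7r* between 6.38 and 6.72, and *Ebf1* between 2.12 and 2.19. None of these 5 late genes, *Pax5* included, entered the test. None of the 7 early genes lies on chromosome 1 or 6, which carry *Ptprc* (the CD45 gene) and *Ltbr*, at which the donors differ by design.

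Levels were compared between genes only after division by the length of the longest protein-coding transcript, as signal per kb. *Tcf3* was highest with a mean of 861 (798 to 900 over the 6 samples) and lay above 91.2% of the 11015 tested genes with a known length. *Ikzf1* with 245 (224 to 273), *Flt3* with 229 (193 to 253) and *Bcl11a* with 207 (182 to 245) came next, and their ranges overlapped, so that no order among these 3 can be given. *Dntt* was lower, with 66.8 per kb (59.8 to 74.5). *Ets1* with 27.6 (23.7 to 31.1) and *Satb1* with 22.2 (19.9 to 23.6) were the lowest, and the lowest value of *Ets1* was just above the highest of *Satb1*. *Flt3* lay above 65.6% and *Satb1* above 15.3% of tested genes on this per-kb scale.

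Sequences before listed transcript starts of *Flt3* and *Bcl11a*, the genes that fell, are shown to place the motifs of the transcription factors among the 7, and *Dntt*, whose mean lay in the other direction, is printed for comparison. Each line gives the 250 bases before the RefSeq transcription start, 5′ to 3′ on the strand of the gene (GRCm38.p6, the build that the submitters' processing notes also name). The window of *Bcl11a* lies inside the gene interval given below, before the 1 start listed for it and downstream of the first base of the gene. Capitals mark GGAA on either strand, the core bound by ETS factors such as Ets1, and CANNTG, the E box bound by E proteins such as Tcf3.
*Flt3*, chr5:147400490-147400739, minus strand: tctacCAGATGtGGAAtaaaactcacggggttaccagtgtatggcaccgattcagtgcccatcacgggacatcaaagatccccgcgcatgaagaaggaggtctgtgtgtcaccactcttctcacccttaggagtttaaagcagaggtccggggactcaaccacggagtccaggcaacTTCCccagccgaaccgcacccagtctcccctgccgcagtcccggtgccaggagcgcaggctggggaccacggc
*Bcl11a*, chr11:24080445-24080694, plus strand: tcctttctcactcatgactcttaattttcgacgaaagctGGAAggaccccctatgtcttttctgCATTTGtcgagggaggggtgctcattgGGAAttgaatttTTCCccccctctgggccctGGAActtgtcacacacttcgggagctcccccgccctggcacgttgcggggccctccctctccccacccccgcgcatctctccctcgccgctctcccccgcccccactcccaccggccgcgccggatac
*Dntt*, chr19:41029025-41029274, plus strand: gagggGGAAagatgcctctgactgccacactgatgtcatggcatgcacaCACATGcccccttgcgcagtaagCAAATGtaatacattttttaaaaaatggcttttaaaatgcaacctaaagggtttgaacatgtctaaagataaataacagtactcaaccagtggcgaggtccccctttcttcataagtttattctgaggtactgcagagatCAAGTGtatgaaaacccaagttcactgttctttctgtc

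GGAA occurred 2 times before *Flt3*, 4 times before *Bcl11a* and 1 time before *Dntt*, and it is present in 93.4% of the 32817 RefSeq windows of that length. CANNTG occurred 1 time before *Flt3*, 1 time before *Bcl11a* and 3 times before *Dntt*, and is present in 66.2% of all windows. The longer core GGGAA, which Ikaros binds and which contains GGAA, stood 1, 2 and 1 times in the 3 windows and in 56.2% of all. The RUNX core TGTGGT was found in 0 of the 11 windows listed for the members, which cover 6 of the 7 genes, and in 14.0% of all windows. All motifs were searched on both strands. The GC content was 59.2% before *Flt3* and 62.0% before *Bcl11a*, against 41.6% before *Dntt* and a median of 52.4% over all windows. These matches describe letters only.

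Of the surface receptors, *Flt3* encodes the receptor tyrosine kinase for Flt3 ligand, which marks the lymphoid-primed multipotent progenitors. The gene lies on chromosome 5 (147330741 to 147400489, minus strand). Its signal was 705, 863 and 705 in the Ltbr-/- samples and 902, 927 and 920 in the Ly5.1 samples. All 3 Ltbr-/- values were below all 3 Ly5.1 values, but replicate 2 of Ltbr-/- lay close to Ly5.1 and well above the other 2. The means were 757 ± 91.2 (SD, n = 3) and 916 ± 12.8 (SD, n = 3), a log2 fold change of -0.28 (SE 0.093, 95% confidence interval -0.47 to -0.093, limma adjusted p = 0.0355). An exact permutation test (two-sided) on the 6 values gave p = 0.1, the smallest that 3 against 3 allows. The call was lost when any single sample other than replicate 2 of Ltbr-/- was left out, and the adjusted p (limma) was then between 0.0593 and 0.178, with log2 fold changes between -0.29 and -0.23. Without replicate 2 of Ltbr-/- the log2 fold change was -0.38 (limma adjusted p = 0.00865).

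The DNA polymerase *Dntt* (TdT), which adds untemplated bases at the joints of antigen receptor genes, is transcribed in a fraction of lymphoid-primed progenitors. The gene is on chromosome 19 (41029275 to 41059525, plus strand). Its signal was 159, 151 and 140 in Ltbr-/- and 129, 127 and 147 in Ly5.1. The mean was higher in Ltbr-/-, with 150 ± 9.32 (SD, n = 3) against 135 ± 11.2 (SD, n = 3), but replicate 3 of Ly5.1 was above replicate 3 of Ltbr-/-, and the groups overlapped. The log2 fold change was 0.16 (SE 0.088, 95% confidence interval -0.022 to 0.34, limma adjusted p = 0.249). *Dntt* was the only 1 of the 7 with a value above 0 on the deposited scale, and it was at -0.72 on the scale of ribosomal protein genes.

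*Ikzf1* encodes Ikaros, a zinc finger factor without which lymphoid development fails, and lies on chromosome 11 (11684962 to 11772930). Its signal was 1158, 1247 and 1340 in Ltbr-/- and 1407, 1238 and 1209 in Ly5.1. The ranges lay nearly on top of each other, with a log2 fold change of -0.041 (SE 0.089, 95% confidence interval -0.22 to 0.14, limma adjusted p = 0.818).

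*Tcf3* on chromosome 10 (80409541 to 80433976) encodes E12 and E47, the E2A proteins that open the B cell programme and that Id proteins hold back. Its signal was 2575, 2396 and 2638 in Ltbr-/- and 2655, 2355 and 2626 in Ly5.1. Among the 7 its difference was the smallest, with a log2 fold change of -0.0044 (SE 0.080, 95% confidence interval -0.17 to 0.16, limma adjusted p = 0.983). In both groups replicate 2 was the lowest.

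*Ets1*, a winged helix factor of lymphocytes, lies on chromosome 9 (32636241 to 32757820). Its signal was 130, 120 and 158 in Ltbr-/- and 149, 139 and 145 in Ly5.1. The Ltbr-/- samples enclosed the Ly5.1 samples, and their spread was wider (SD 19.5 against 4.88, n = 3 each). The log2 fold change was -0.097 (SE 0.092, 95% confidence interval -0.28 to 0.090, limma adjusted p = 0.545).

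*Satb1*, which folds chromatin at lymphoid genes and supports the first lymphoid steps of HSCs, lies on chromosome 17 (51736187 to 51833290). Its signal was 140, 147 and 124 in Ltbr-/- and 147, 144 and 128 in Ly5.1. Both groups covered the same range, and replicate 3 was the lowest in both. The log2 fold change was -0.026 (SE 0.089, 95% confidence interval -0.21 to 0.16, limma adjusted p = 0.893). Of the 76-base windows of its transcript, 1.36% also occur in an overlapping transcript model.

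*Bcl11a* encodes a zinc finger repressor that B cell development requires and that is also known for silencing fetal globin. It lies on chromosome 11 (24076564 to 24173558, plus strand). Its signal was 1090, 1104 and 1128 in the Ltbr-/- samples and 1272, 1389 and 1465 in the Ly5.1 samples. The 3 Ltbr-/- samples were close together and all below the lowest Ly5.1 sample. The means were 1107 ± 19.2 (SD, n = 3) and 1375 ± 97.2 (SD, n = 3), a log2 fold change of -0.31 (SE 0.086, 95% confidence interval -0.49 to -0.14, limma adjusted p = 0.0108, exact two-sided permutation p = 0.1). It was called with any single sample left out, with a log2 fold change from -0.37 to -0.26 and an adjusted p (limma) from 0.00704 to 0.0493. Without Ly5.1 replicate 3, the highest, it was closest to the threshold. An antisense transcript model overlaps exons of *Bcl11a* and shares 1.98% of its 76-base windows. The library kit keeps strand, but whether the counting used it is not given in the sources used here.

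**Figure D2:**
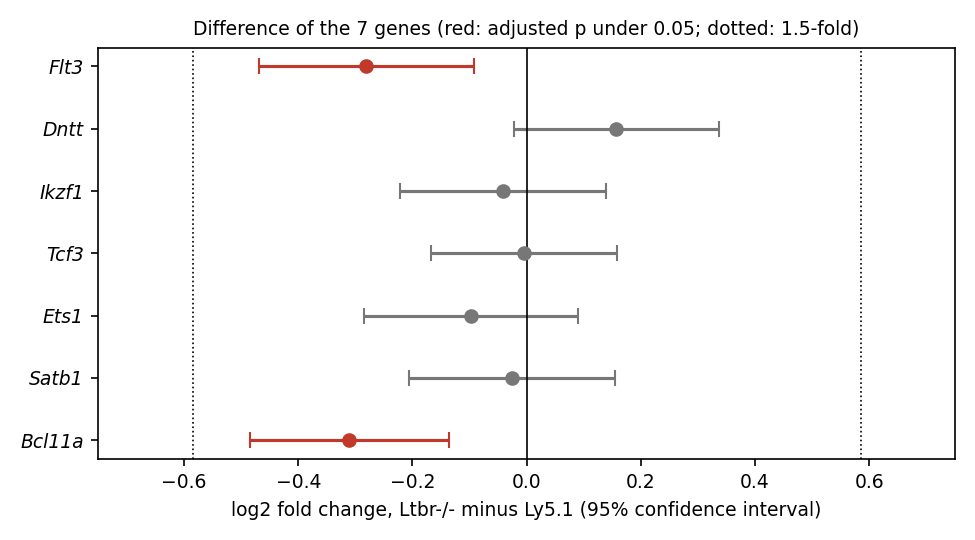
Log2 fold change (Ltbr-/- minus Ly5.1, limma) of the 7 genes with its 95% confidence interval, red where the adjusted p was under 0.05. The intervals of *Flt3* and *Bcl11a* lie below 0, those of the other 5 include 0, and all 7 stay inside the dotted lines at 1.5-fold.

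**Figure D3:**
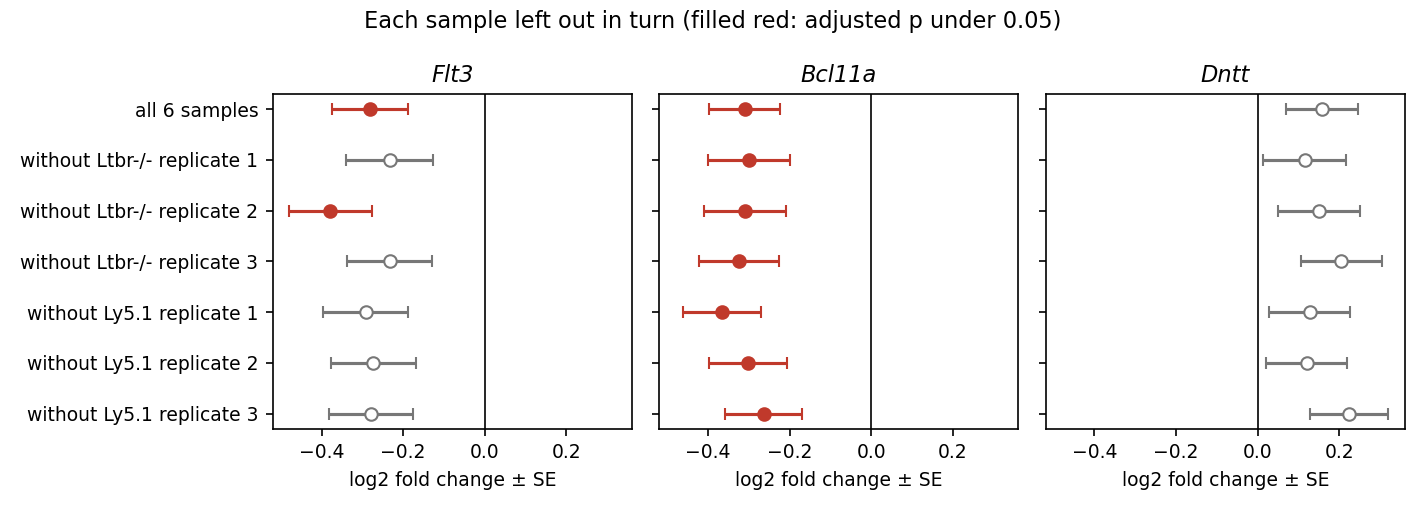
Log2 fold change ± standard error (limma) of *Flt3*, *Bcl11a* and *Dntt* with all 6 samples and with each sample left out in turn, filled red where the adjusted p was under 0.05. *Bcl11a* stays filled throughout, *Flt3* only with all samples and without Ltbr-/- replicate 2, and *Dntt* is never filled.

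Values of Ltbr-/- and Ly5.1 that do not overlap were seen in 2 of the 7 genes, against 30.4% of all tested genes. Over the 6 samples, the genes whose log2 values ran most like those of *Bcl11a* were *Gpx7*, *Tmem194b* and *Egfl8* (Pearson r = 0.994, 0.989 and 0.988). Those most like *Flt3* were *Acad9*, *9430020K01Rik* and *Kctd20* (r = 0.986, 0.984 and 0.983). With 6 samples in 2 groups such values are common: 69 tested genes reached an r of 0.95 with *Bcl11a* and 36 with *Flt3*. They are given as a description.

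The other genes of early lymphoid specification were taken from 11 lists of partners, paralogs and later steps. Of 89 genes, members left out, 74 were tested, of which 8 were lower, 4 higher and 62 neither. That is 10.8% lower and 5.41% higher, against 4.18% and 10.6% of all tested genes, and the median log2 fold change was -0.072 against -0.011. After quantile normalization the calls were 12 lower and 2 higher, with 914 lower and 1246 higher among all tested genes in place of 548 and 1388. On the scale of ribosomal protein genes all 74 were lower, the 4 genes called higher included, as were 12832 of all 13108 tested genes. With any single sample left out, *Cd27*, *Mef2c*, *Myb*, *Id1* and *Etv6* kept their calls, and the other 7 genes did not.

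Among the lymphoid receptors and surface markers, 2 of 6 tested genes fell. *Cd27*, a TNF receptor found on lymphoid-primed progenitors, had signals of 689, 881 and 713 in Ltbr-/- and of 1002, 968 and 1028 in Ly5.1 (log2 fold change -0.401, SE 0.094, limma adjusted p = 0.00223). As for *Flt3*, replicate 2 was the highest Ltbr-/- sample, which was noted after the values were seen. *Il2rg*, the common γ chain of the IL-7 receptor and related receptors, fell by 0.28 on the log2 scale (limma adjusted p = 0.0187), and missed the threshold without Ltbr-/- replicate 1, Ltbr-/- replicate 2 or Ly5.1 replicate 1, with an adjusted p up to 0.0817. *Notch1* (-0.013), *Cxcr4* (-0.19) and *Ly6d* (0.050) did not pass. *Il7r*, *Ccr7* and *Ccr9* were too low to be tested, at 6.38 to 11.8 in all samples.

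Of the relatives of Flt3, 0 of 3 tested class III receptor tyrosine kinases were called, with *Kit* at -0.15 (adjusted p = 0.154) and *Csf1r* at -0.27 (limma adjusted p = 0.0593). Of 10 signalling partners of Flt3, among them its ligand *Flt3l* (0.12) and *Cbl* (-0.24), 0 passed. At an unadjusted p under 0.05 (limma), 2 genes of each of these lists would pass, all lower. At the end of the antigen receptor machinery, 1 of 9 tested V(D)J recombination genes rose, the DNA polymerase λ gene *Poll*. Its log2 fold change was 0.36 (SE 0.093, limma adjusted p = 0.00620). Without Ltbr-/- replicate 3 its call was lost. Its relative *Polm* was at 0.11 (adjusted p = 0.409).

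In the E protein network the largest difference was that of *Id1*, an inhibitor that binds E proteins and keeps them from DNA. Its signal was 401, 441 and 364 in Ltbr-/- and 221, 288 and 286 in Ly5.1, without overlap. It rose with a log2 fold change of 0.61 (SE 0.10, limma adjusted p = 2.75e-05), and it was the only 1 of the 74 genes past a 1.5-fold difference. The E proteins *Tcf4* (-0.17) and *Tcf12* (-0.063) and the inhibitor *Id2* (0.019) did not pass, as *Tcf3* did not. Of the partners with which E proteins form complexes in stem cells, *Lmo2* fell (-0.24, adjusted p = 0.0216) and *Gata2* rose (0.22, limma adjusted p = 0.0402), and the other 4 of 6 did not pass. Leaving out 1 sample ended the call of *Lmo2* in 3 of 6 cases (Ltbr-/- replicates 1 and 2, Ly5.1 replicate 1; adjusted p up to 0.133) and that of *Gata2* in 5 of 6, all but Ly5.1 replicate 3 (up to 0.158). After quantile normalization *Gata2* was at 0.084 (limma adjusted p = 0.456).

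All 10 of 10 tested ETS family genes other than *Ets1* had a log2 fold change below 0, with a median of -0.18, and 3 of them fell. These were *Etv6*, needed for HSC maintenance in the BM, at -0.34 (adjusted p = 0.00279), *Elf1* at -0.28 (adjusted p = 0.0259) and *Gabpa* at -0.26 (limma adjusted p = 0.0478). Among all tested genes, 7029 of 13108 were below 0. The 10 ETS genes stayed below 0 with any 1 sample left out except Ly5.1 replicate 1, without which 8 of 10 did. *Etv6* kept its call each time, while *Elf1* and *Gabpa* lost theirs in 3 and 5 of 6 cases (adjusted p up to 0.172 and 0.182), so that 1 gene was called without Ltbr-/- replicate 2 or 3. Of the 3 tested Ikaros relatives 0 passed, with *Ikzf2* at 0.10, *Ikzf4* at 0.00063 and *Ikzf5* at -0.016, and 0 of 13 subunits of NuRD, the remodelling complex that Ikaros and Bcl11a recruit, passed the test. At an unadjusted p under 0.05 (limma), 0 of the Ikaros relatives and 1 NuRD subunit, which was lower, would pass. The paralog *Bcl11b* was too low to be tested.

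Of the other lymphoid transcription factors, 3 of 10 tested genes were called. *Mef2c*, which favours lymphoid over myeloid fate, fell from 1025 ± 78.8 to 793 ± 47.7 (SD, n = 3 each; log2 fold change -0.37, limma adjusted p = 0.00337). *Myb*, a regulator of progenitor growth, fell by 0.26 on the log2 scale (adjusted p = 0.00558), and *Runx1*, a master regulator of blood stem cells, rose by 0.27 (limma adjusted p = 0.0341). The call of *Runx1* was lost without Ltbr-/- replicate 1 or 2 or Ly5.1 replicate 1 or 2 (adjusted p up to 0.199). After quantile normalization *Myb* was at -0.51 and *Runx1* at 0.25 (limma adjusted p = 0.0587 for *Runx1*). *Spi1*, whose product PU.1 sets the myeloid and lymphoid balance, had 0.23 (adjusted p = 0.0664) and *Gfi1* had -0.26 (adjusted p = 0.0666).

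**Figure D4:**
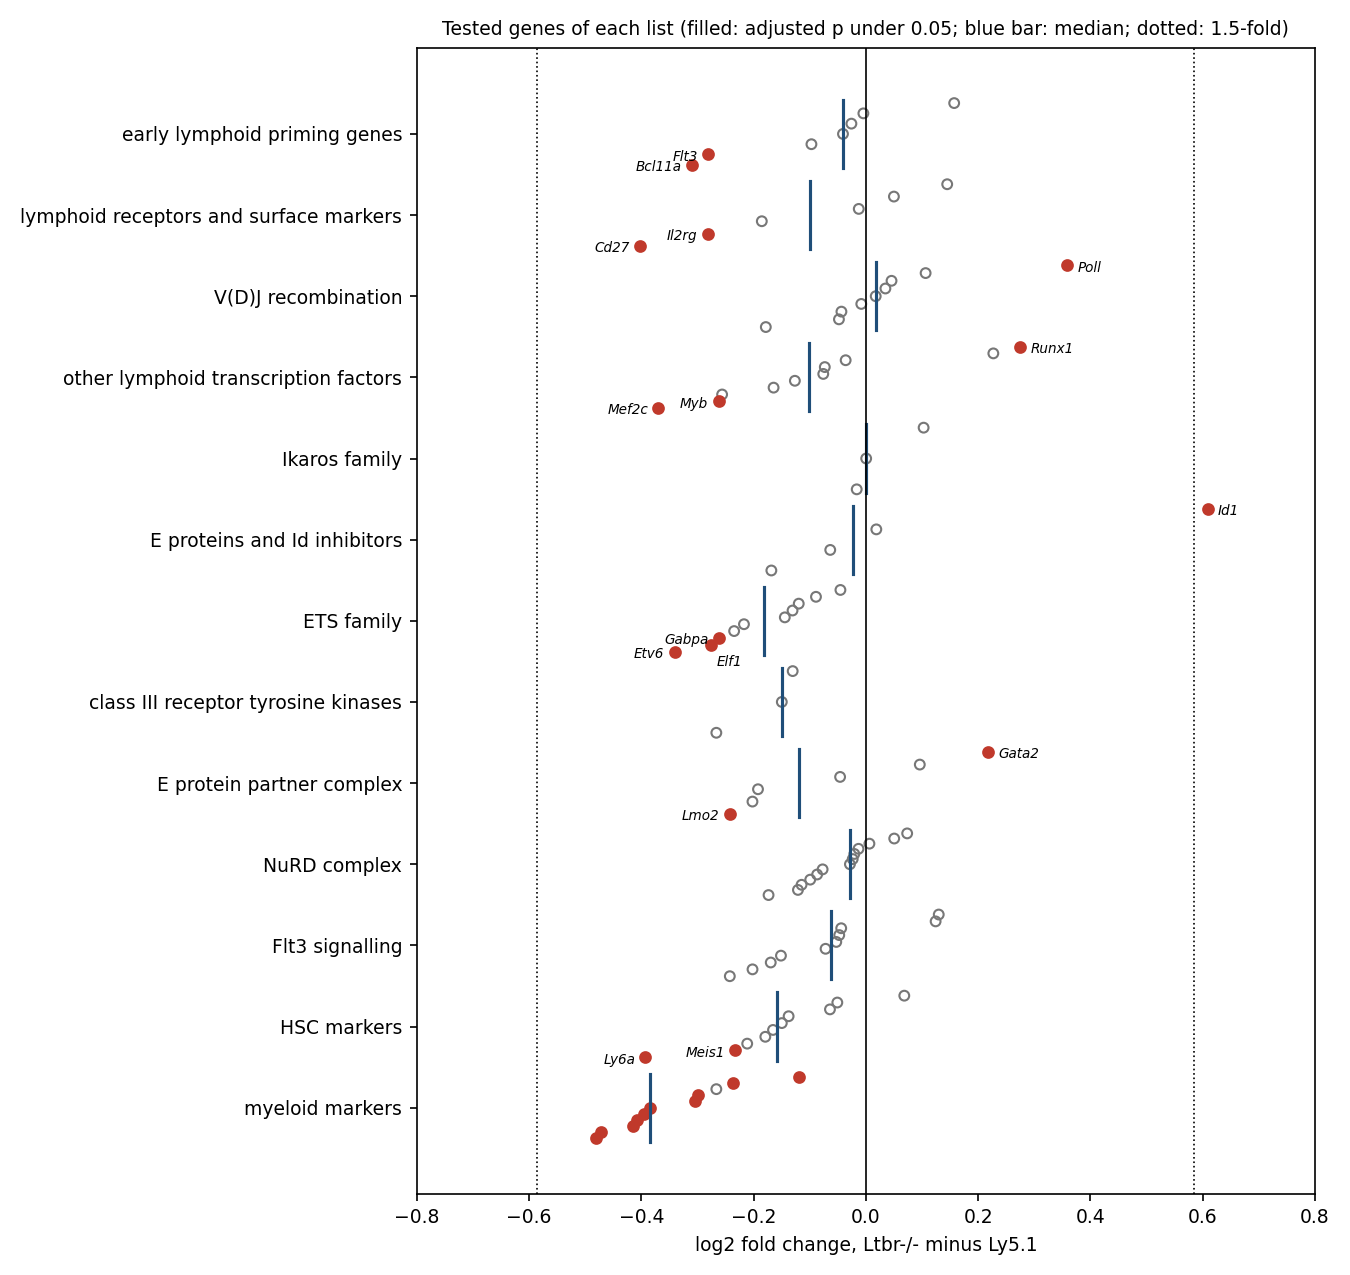
Log2 fold change (Ltbr-/- minus Ly5.1, limma) of each tested gene by list (the members, the pathway lists, and HSC and myeloid markers), filled red where the adjusted p was under 0.05, with a blue bar at the list's median and dotted lines at 1.5-fold. The points lie on both sides of 0 in most lists, on the lower side in all ETS family, class III receptor tyrosine kinase and myeloid marker genes, and *Id1* is beyond the 1.5-fold line.

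Markers of other cell types moved with the genotype beside these genes. All 11 tested myeloid markers had a log2 fold change below 0, against 7029 of all 13108 tested genes. Of the 11, 10 fell (90.9%, against 4.18% of all tested genes), among them *Mpo* (-0.39), *Ctsg* (-0.48), *Lyz2* (-0.42) and *S100a9* (-0.47). The count of 10 became 7 without Ltbr-/- replicate 2, Ltbr-/- replicate 3 or Ly5.1 replicate 1. It was 1 with a linear model without moderation, which called 93 of all tested genes lower in place of 548. All 11 stayed below 0 in each of these cases. After quantile normalization *Mpo* was at -0.75 and *S100a9* at -0.83. The summed signal of the 11 genes was 38886 to 38968 in Ltbr-/- and 49785 to 53719 in Ly5.1. The sum of 10 HSC markers was also lower, at 13832 to 14432 against 15804 to 15964, and *Ly6a* and *Meis1* fell, the latter not past the threshold in 5 of 6 cases with 1 sample left out, all but Ly5.1 replicate 3. *Cd34*, which rises with *Flt3* from stem cells to multipotent progenitors, fell as well (-0.31, limma adjusted p = 0.00434), while *Cd48* had 0.012. The sum of the B cell markers was higher in Ltbr-/-, at 671 to 702 against 507 to 567. All 4 tested genes of the list had a log2 fold change above 0, as did 6079 of all 13108 tested genes. Of the 4, *Blnk* (0.0028) and *Cd22* (0.013) were close to 0 and not called. *Cd79a* rose (0.62, limma adjusted p = 6.87e-06) and was past a 1.5-fold difference. *Cd79b*, at 301, 357 and 300 in Ltbr-/- and 290, 283 and 268 in Ly5.1, did not overlap between the groups either (0.18, limma adjusted p = 0.216). *Ms4a1* and *Pax5* were between 1.15 and 1.72. On the scale of ribosomal protein genes *Cd79a* was at -0.26. The sum of 5 plasma cell markers was also higher in Ltbr-/-, at 966 to 1106 against 765 to 946, without overlap. Most of that sum was *Xbp1*, at 870 to 1005 in Ltbr-/- and 661 to 839 in Ly5.1. *Sdc1*, *Igj* and *Prdm1* lay the other way, with every Ltbr-/- value below every Ly5.1 value, as in 1767 of all 13108 tested genes. *Sdc1* and *Igj* were not called, and *Prdm1*, at 6.17 to 6.59, was too low to be tested. *Mzb1* overlapped between the groups. The sums of 10 T and NK cell markers (340 to 353 and 335 to 369) overlapped between the groups. In the T and NK list 0 of 5 tested genes were called by limma, with 1 at an unadjusted p under 0.05, and of the 3 tested plasma cell genes *Xbp1* rose (0.33), though not without Ltbr-/- replicate 3 or Ly5.1 replicate 1. Whether these shifts have a part in the lower *Flt3* and *Bcl11a* was not tested, and donor age, which differs between the groups, was not tested either.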

How the data were processed

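RNA-seq of 3 Ltbr-/- and 3 Ly5.1 samples was analysed from the values deposited by the authors. Per the study's methods, single reads of 76 bases were assembled with SeqMan NGen and quantified with ArrayStar, and the level is a regularized logarithm from Bioconductor; the submitters' processing notes name DESeq2 and GRCm38. The deposited signal is above 0 and exactly 1 in the same 9392 of 26595 rows of every sample, and it was taken as 2 to the power of the regularized log. That reading comes from the values. The files hold no read counts, so the depth of each sample is unknown here, no counting interval can be given, and precision rests on 3 replicates a group. The median log2 signal of tested genes was 8.46 to 8.47 in all samples. The summed signal of all symbols differed, at 12974106 to 13281050 in Ltbr-/- and 11689052 to 11983000 in Ly5.1.

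The log2 of the signal was used with no pseudocount. A symbol listed more than once (75 symbols) kept its row with the highest mean, and the upper 50% of symbols by mean were tested, 13108 genes. Groups and replicate numbers came from the sample titles. limma 3.58.1 in R 4.3.3 (lmFit, eBayes with a trend) compared Ltbr-/- with Ly5.1, with Benjamini-Hochberg adjustment over all tested genes, which applies to every adjusted p given. Single genes were also compared by an exact permutation test, which cannot go below 0.1 with 3 against 3. The 7 members and the lists were chosen with earlier results of these data known. The genes named are the members, the list genes with an adjusted p under 0.05 (at most 6 a list) and the 3 genes most correlated with each called member; others were named after their values were seen. Values of a few list genes are not reported here. *Spi1* and *Mzb1* were found under the older names *Sfpi1* and *2010001M09Rik*. *Tcf3* was taken as the E2A gene because the similarly named *Tcf7l1* has a row of its own. Nothing in the labels says whether replicates share recipients, so p-values measure the spread between pooled samples.

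The test was checked on simulated data. It found 27% of the simulated log2 changes of 0.3 and 88% of those of 0.6, and 0.862% of its 116 calls were false. The simulation changed 200 of 13108 genes, while 1936 genes were called in the data. With fewer changed genes the adjusted threshold is stricter, so these shares do not give the power in the data. Most changes of about the size seen for *Flt3* and *Bcl11a* were missed in the simulation. Missing the threshold alone does not show that a gene lacks a change of that size. Alternatives were other filters, scalings, pseudocounts, variance models, the replicate block and leaving out each sample. Positions and promoter sequences came from RefSeq (GRCm38.p6), which gave windows for 6 of the 7 genes, and transcript lengths and overlaps from GENCODE M21.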

Additional observations from a re-analysis of the deposited data

How the results depend on the processing

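The count of 2 called genes among the 7 stayed at 2 with the upper 25% of symbols, quantile-normalized values, samples centred on their median, pseudocounts of 1 and 10, a robust fit and the mean of repeated rows. It was 1 without a filter and 1 without a trend, both times through the loss of *Flt3* (log2 fold change -0.28 in each), 0 with a fold of at least 1.5, and 0 with a linear model without moderation, where *Flt3* (-0.28, adjusted p = 0.221) and *Bcl11a* (-0.31, adjusted p = 0.0893) both missed the threshold. Leaving out 1 sample gave 1 to 2. For the 74 tested genes of the other lists the count of 12 became 1 with the fold threshold and 2 without moderation, and 7 to 14 with 1 sample left out; it was 7 without Ltbr-/- replicate 2 and 7 without Ly5.1 replicate 1.

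Centring each sample on 80 ribosomal protein genes moved the overall median to -0.89. It called 12832 of all 13108 tested genes lower, all 7 members and all 74 list genes included. Under it *Dntt* was at -0.72, *Ikzf1* at -0.92, *Satb1* at -0.90, *Tcf3* at -0.88 and *Ets1* at -0.97, and the genes called higher turned to lower values, *Poll* at -0.52, *Runx1* at -0.60, *Id1* at -0.27, *Gata2* at -0.66, *Cd79a* at -0.26 and *Xbp1* at -0.55; relative to the shifted median these 6 stay above 0. Quantile normalization ended the calls of *Gata2* and *Runx1* and moved *Gata2*, *Myb*, *Mpo*, *S100a8* and *S100a9* by over 1.5 times.

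With 1 sample left out, *Flt3* ranged from -0.38 to -0.23, and the genes near 0 changed sign without a call, *Ikzf1* from -0.093 to 0.026, *Satb1* from -0.090 to 0.044 and *Tcf3* from -0.059 to 0.036. Deviations of same-numbered samples from their group means correlated at 0.031, -0.005 and 0.090, and not every sample correlated best with its own number. Such values cannot tell whether same-numbered samples share recipients, because a shared recipient may leave little trace in them. With the replicate block 2 members and 13 list genes were called, and *Flt3* had an adjusted p of 0.0361 and *Bcl11a* of 0.0113 (limma). The files give no depth, so what depth limits could not be assessed. The confidence intervals of the 5 members that missed the threshold hold only for the values on the deposited scale, which were read as shrunken. They do not bound the difference in RNA that could have been missed.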
